A study of Mus musculus with 16 samples.

Results

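The genes encoded by the mitochondrial genome were examined in liver RNA of 16 mice. They were taken as the rows of the deposited expression table whose gene name begins with mt-, which gave 37 of the 57010 rows. By the biotype listed in the table, 13 were protein-coding genes, 2 were rRNA genes and 22 were tRNA genes. All mice were male wild-type C57BL/6J, and the 4 groups, named control, Cd, Cd+Se and Se, held 4 livers each. Cd was given as CdCl2 at 1.25 mg/kg by intraperitoneal injection on each of the final 7 days, while Se came as SeMet, selenomethionine, mixed into the feed at 2 ppm over 3 months. The Cd+Se mice received both and the control mice neither. Whether control and Se mice had a vehicle injection is not given in the sources used here. Below, control mice carry the numbers 27 to 30, Cd mice 1, 2, 5 and 6, Cd+Se mice 13 to 16 and Se mice 39, 40, 41 and 44. Each mouse has 1 column of values in TPM, a transcript level corrected for gene length and scaled to the same total in every library. These values keep no sequencing depth, so the depth is unknown and the precision rests on the 4 mice of a group.

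Mitochondria carry a small circular genome of their own, present in many copies per cell. Both strands are transcribed from the control region into long precursors, from which tRNAs are cut out to release the rRNAs and mRNAs between them. The rRNAs mt-Rnr1 and mt-Rnr2 form the small and large subunits of the mitochondrial ribosome, and the mRNAs encode core subunits of respiratory complexes I, III and IV and of the ATP synthase, complex V. The other subunits and the whole transcription and processing machinery are encoded in the nucleus. Hepatocytes are rich in mitochondria, and Cd is known to accumulate in the liver.

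The libraries carried the labelled Cd treatment, while no gene was used to check the Se label. Mt1 and Mt2, the genes of the metal-binding metallothioneins, summed to between 77.3 and 371 TPM in control mice and 83.9 to 667 TPM in Se mice, against 6260 to 9392 TPM in Cd mice and 6685 to 11942 TPM in Cd+Se mice. All 5 hepatocyte markers were detected, with summed levels of 57051 to 79062 TPM in control mice and 36976 to 64189 TPM in Cd mice. The sums were 47164 to 69402 TPM in Cd+Se and 56752 to 111124 TPM in Se mice. Alb made up most of the sum, averaging 52073 TPM in control and 33212 TPM in Cd mice. Cps1 averaged 824 and 325 TPM and Serpina1a 3981 and 3450 TPM. Apoa1 averaged 6152 and 8620 TPM and Ttr 5747 and 6130 TPM. Of the 5 markers, 1 was called lower and 0 higher in Cd against control. Markers of some other cell types moved with Cd. In Cd against control, 0 of 3 tested stellate cell markers, 0 of 5 red cell markers and 0 of 1 tested lymphocyte marker were called. Of 4 bile duct markers, 0 reached the mean of 1 TPM needed for testing. The summed level of 6 Kupffer cell markers was 105 to 129 TPM in control, 35.02 to 54.4 TPM in Cd, 32.1 to 65.6 TPM in Cd+Se and 57.9 to 142 TPM in Se mice. That of 5 neutrophil markers was 5.73 to 15.7 TPM, 31.0 to 39.6 TPM, 43.96 to 73.2 TPM and 5.10 to 9.30 TPM in the same order. Among them, Ly6g and Mpo were at most 0.17 and 0.20 TPM. The summed level of 5 markers of sinusoidal endothelium was 53.3 to 64.2 TPM in control, 33.6 to 50.4 TPM in Cd, 37.8 to 72.6 TPM in Cd+Se and 40.1 to 62.8 TPM in Se mice. Against control, Kdr (log2 change -0.90, limma adjusted p = 0.0204) and Stab2 (-0.62, adjusted p = 0.0205) were called lower in Cd mice. Pecam1, Clec4g and Lyve1 were not called. Clec4g made up most of the sum, averaging 36.8 TPM in control and 28.7 TPM in Cd mice. Lyve1 averaged 2.79 TPM in control, 3.14 TPM in Cd and 7.31 TPM in Cd+Se mice. The part of these shifts in the mitochondrial results was not tested, and in whole tissue fewer cells of a type cannot be told apart from less RNA per cell.

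A second set of rows bears on the levels of the mitochondrial mRNAs. Chromosome 1 carries a nuclear copy of a stretch of the mitochondrial genome, which is annotated in GRCm38 (GENCODE M21) as 7 pseudogenes on the minus strand between positions 24611535 and 24616197. Gm28661 (mt-Co2), Gm10925 (mt-Atp6), Gm28437 (mt-Co3) and Gm10222 (mt-Nd4l) matched their mitochondrial gene over 681, 678, 783 and 294 bases with 0 mismatches. Gm28439 matched the first 876 bases of mt-Nd4 with 0 mismatches. Gm28438 differed from mt-Nd3 by 1 base in 345, and Gm29216 from the last 483 bases of mt-Co1 by 1 base. A read that lies wholly within identical bases cannot be told apart between gene and copy. A more diverged copy on chromosome 2, Gm13341, had 16 mismatches to mt-Co2 over 672 aligned bases. The windows below show how far each kind of copy departs from mt-Co2, with the GRCm38 positions chrM:7486-7515 on the plus strand for the gene, chr1:24615063-24615092 on the minus strand for Gm28661 and chr2:22587472-22587501 on the minus strand for Gm13341. Each is written 5′ to 3′, and capitals mark the bases at which Gm13341 differs from the gene.
mt-Co2: CgtCctccactcatgagcAGtcccctcCct
Gm28661: cgtcctccactcatgagcagtcccctccct
Gm13341: TgtTctccactcatgagcCAtcccctcAct
Counted from 1 at the 5′ end of mt-Co2, the differences in Gm13341 are C474T, C477T, A492C, G493A and C501A, whereas Gm28661 has none.

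The single differences in the copies of mt-Nd3 and mt-Co1 lie in the next windows, which are shown because a read that does not cross that base carries no mark of its origin. The first pair is chrM:9459-9488 on the plus strand and chr1:24613090-24613119 on the minus strand. The second pair is chrM:6390-6419 on the plus strand and chr1:24616159-24616188 on the minus strand. Capitals mark the differing base, T3C in Gm28438 and A1066T in Gm29216, counted from the 5′ end of the mitochondrial gene.
mt-Nd3: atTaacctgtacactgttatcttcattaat
Gm28438: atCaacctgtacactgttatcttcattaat
mt-Co1: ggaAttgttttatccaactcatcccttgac
Gm29216: ggaTttgttttatccaactcatcccttgac

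The identical copies held much of the signal. Gm28661 averaged 25751 TPM over the 16 libraries against 1072 TPM for mt-Co2 itself, Gm28437 19820 TPM against 1182 TPM for mt-Co3, and Gm10925 18907 TPM against 2865 TPM for mt-Atp6. Weighted by length, the row of mt-Co2 held 2.44 to 5.59% of the pair's level, that of mt-Co3 2.40 to 8.43%, that of mt-Atp6 11.2 to 15.3% and that of mt-Nd3 14.8 to 24.9%. The pair of mt-Nd4l was divided almost evenly, with 46.1 to 59.7% in the mitochondrial row. The rows of mt-Nd4 and mt-Co1 held at least 97.4% and 94.1%. The 3 copies on chromosome 2 averaged at most 1.36 TPM. The level of mt-Co2, mt-Co3, mt-Atp6, mt-Nd3 and mt-Nd4l in the table is therefore uncertain, and each is given below both alone and summed with its copy.

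**Figure D1:**
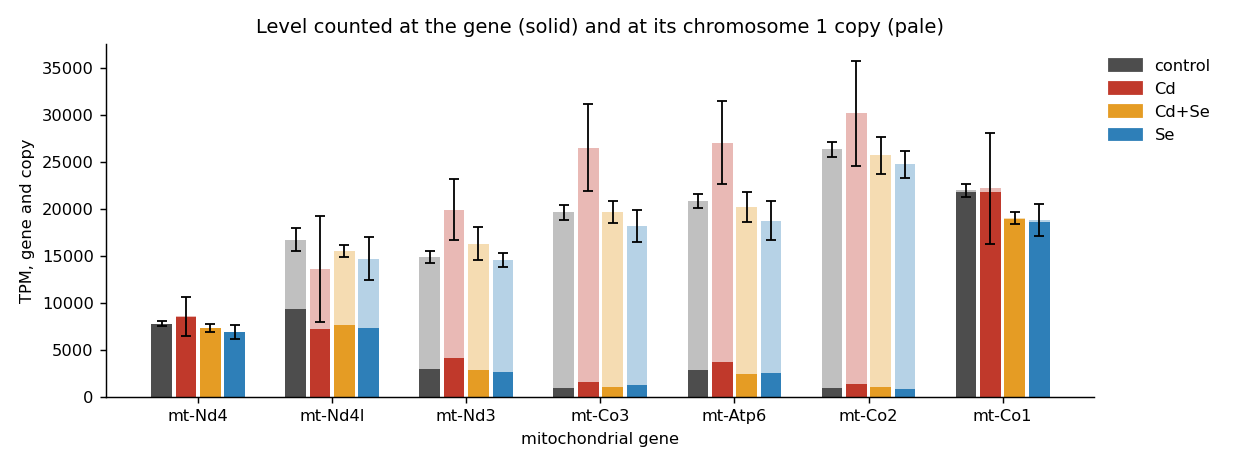
Mean TPM of 7 mitochondrial genes in each group, with the part listed at the gene (solid) and at its chromosome 1 copy, weighted by length (pale); bars show the SD of the sum over 4 mice. Most of the level of mt-Co2, mt-Co3, mt-Atp6 and mt-Nd3 stands at the copy.

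The 13 protein-coding and 2 rRNA genes were all expressed, whereas all 22 tRNA genes were listed at 0 in all 16 libraries. The tRNA genes are 59 to 75 bases long, and other short RNA classes were also nearly empty, with 1 of 2206 miRNA rows above 0 in any library. Among the mRNAs, mt-Atp8, an ATP synthase subunit encoded by only 204 bases, had the highest level per length of any gene in the table, at 73484 TPM on average. It shares 43 bases with mt-Atp6, the next ATP synthase gene on the same strand, and mt-Nd4l shares 7 bases with mt-Nd4. Whether the members of such a pair lie on the same RNA was not examined. A difference in level or change between them is thus not shown to be one between transcripts. mt-Co1, the catalytic subunit of complex IV, averaged 20258 TPM and ranked 6 among all genes. mt-Cytb, the mitochondrial subunit of complex III, averaged 11605 TPM, and the complex I genes ranged from 11689 TPM for mt-Nd2 to 3123 TPM for mt-Nd3. The rRNAs were far below most mRNAs, at 1585 TPM for mt-Rnr1 and 1160 TPM for mt-Rnr2. RNA was selected for poly(A) before sequencing, so an rRNA level in these libraries is not its level in the cell. Summed with their copies, mt-Co2 (26710 TPM), mt-Atp6 (21689 TPM), mt-Co3 (20977 TPM) and mt-Co1 (20490 TPM) followed mt-Atp8, and mt-Nd5 was the lowest mRNA at 3145 TPM. mt-Nd6 is the only one of the 13 protein-coding genes on the minus strand. The sources used here do not say whether strand was kept in counting, so its 4856 TPM cannot be told apart from antisense RNA of the other strand.

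Together the 37 genes took a share of the library that varied little among control mice and Cd+Se mice and most among Cd mice. Their summed TPM was 17.0 ± 0.404% of the library (SD, n = 4) in control, 16.5 ± 4.49% in Cd, 15.9 ± 0.705% in Cd+Se and 15.5 ± 1.72% in Se mice. In the Cd group the 4 values were 13.05% and 12.8% in mice 1 and 2, below every control mouse, and 22.2% and 18.04% in mice 5 and 6, above every control mouse. With the nuclear copies added, the shares were 24.8 to 25.7% in control mice and 22.0%, 21.8%, 34.8% and 27.996% in Cd mice 1, 2, 5 and 6. mt-Atp8 made up 45.5 to 47.7% of the mitochondrial total in control mice and 36.5 to 44.7% in Cd mice, and these ranges did not overlap. The rRNAs took 0.136 to 0.251% of the library in control, 0.430 to 0.554% in Cd, 0.170 to 0.353% in Cd+Se and 0.127 to 0.282% in Se mice. No test was made of these sums.

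**Figure D2:**
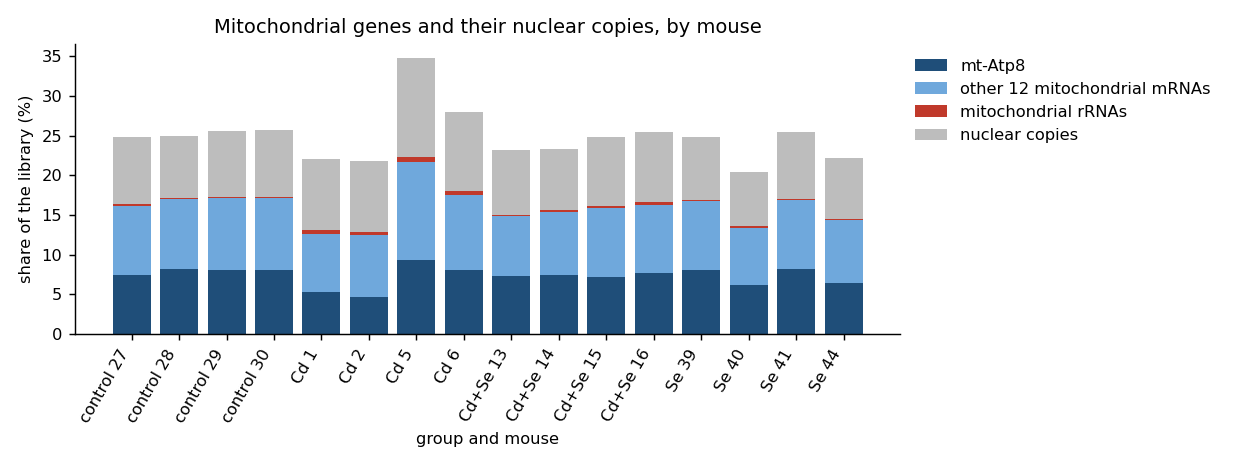
Share of each library's TPM (%) taken by mt-Atp8, the other 12 mitochondrial protein-coding genes, the rRNAs and the nuclear copies, with 1 bar per mouse. The total varies most in the Cd group, and the narrow rRNA band is widest in the 4 Cd mice.

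The comparison of Cd with control mice asked how Cd alone changed these genes. Both mitochondrial rRNAs rose, mt-Rnr1 by 2.74-fold and mt-Rnr2 by 2.85-fold, in every Cd mouse. Of the mRNAs, only mt-Co3, a core subunit of complex IV, passed the test, and no mitochondrial gene was called lower. Here and below, log2(TPM + 1) was compared with limma in 1 model over the 16 libraries, for all 11766 genes whose mean reached 1 TPM, and a gene was called at a Benjamini-Hochberg adjusted p under 0.05. All 15 expressed mitochondrial genes were in the test, and 3 were called higher and 0 lower. Among all genes 30.8% were called, 5.82% as higher and 24.9% as lower. The median log2 change of the 15 genes was 0.18, that of all genes tested -0.17. The whole table leaned downwards on this scale, and centring the libraries on their median changed the calls over all genes from 685 higher and 2934 lower to 2260 higher and 1804 lower, or to 1710 and 2276 under quantile normalization. The median change over all genes was then 0.05 and -0.01. Both rRNAs were called as higher under each of these scalings.

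mt-Rnr1 was listed at 1446, 957, 811 and 850 TPM in control mice 27 to 30 and at 2530, 2529, 3018 and 2767 TPM in Cd mice 1, 2, 5 and 6. The lowest Cd mouse was thus well above the highest control mouse, which was mouse 27. Its log2 change was 1.45 (standard error 0.24, limma adjusted p = 0.000732). mt-Rnr2 was listed at 1067, 804, 546 and 554 TPM in the same control mice and at 1811, 1773, 2525 and 2134 TPM in the Cd mice. Again the groups did not overlap and mouse 27 was the highest control. Its log2 change was 1.51 (standard error 0.27, limma adjusted p = 0.00116). Across 26 alternative settings, which include leaving out each mouse, the change of mt-Rnr1 ranged from 1.30 to 1.67 and that of mt-Rnr2 from 1.38 to 1.73, and both passed the threshold in all 26. Besides these, 2 rows listed as rRNA were above 0. Rn18s-rs5, related to the rRNA of the cytosolic small subunit, was at 413 to 481 TPM in control mice and 354 to 582 TPM in Cd mice. AY036118 was at 8.81 to 14.6 TPM in control mice and at 36.3, 34.6, 15.96 and 10.6 TPM in Cd mice 1, 2, 5 and 6, so all but mouse 6 were above the control range.

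**Figure D3:**
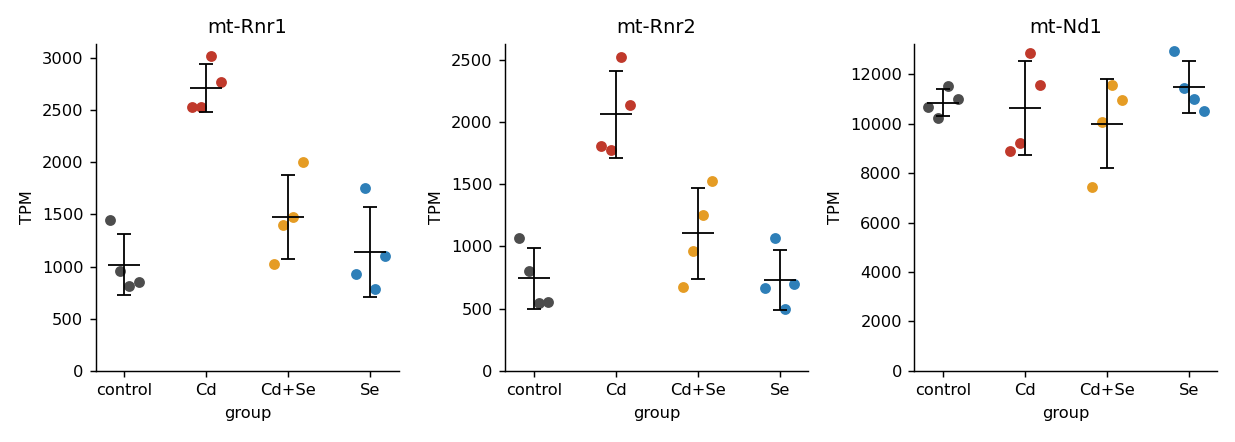
TPM of mt-Rnr1, mt-Rnr2 and, for comparison, the neighbouring mRNA mt-Nd1 in each mouse (points), with the group mean and SD over 4 mice. All 4 Cd mice stand above every control mouse for both rRNAs, and the groups overlap for mt-Nd1.

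Other features of the libraries moved with Cd in the same mice. Malat1, a long RNA retained in the nucleus, was 54.9 to 84.9 TPM in control and 114 to 148 TPM in Cd mice, with a log2 change of 0.92 (limma adjusted p = 0.00119). It was 1 of 3 such RNAs looked at. Neat1, at 37.2 to 64.1 TPM in control and 49.1 to 78.2 TPM in Cd mice, overlapped and was not called. Meg3 was at most 0.37 TPM in control and 0.45 TPM in Cd mice and was not tested. An index of transcript length, the median log2 difference from the control mean of nuclear protein-coding genes with transcripts of up to 2125 bases minus that of genes with at least 4695 bases, was -0.11 to 0.077 in control and 0.21 to 0.34 in Cd mice. It was -0.052 to 0.089 in Cd+Se mice and -0.015 to 0.076 in Se mice. The part of these features in the rise of the rRNAs was not tested.

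The mRNAs did not follow the rRNAs as a block. mt-Co3 was at 490, 1282, 682 and 1256 TPM in control mice 27 to 30 and at 1196, 1784, 1891 and 1399 TPM in Cd mice 1, 2, 5 and 6, so the groups overlapped. Its log2 change was 0.85 (standard error 0.30, limma adjusted p = 0.0424). This call was lost without control 27 (adjusted p = 0.141), control 29 (0.116), Cd 2 (0.0927), Cd 5 (0.117), Cd 6 (0.0599) or Se 44 (0.0515), under quantile normalization (0.120), with no filter on low values (0.117) and in a model of the control and Cd mice alone (0.0556). mt-Nd3, a complex I subunit, was at 2678 to 3161 TPM in control mice and 3187, 3549, 6075 and 3588 TPM in Cd mice 1, 2, 5 and 6. The ranges did not overlap, though by little, and the log2 change of 0.44 did not pass (limma adjusted p = 0.0633). In all, 3 of the 15 genes had groups that did not overlap, mt-Rnr1, mt-Rnr2 and mt-Nd3, against 34.2% of all genes tested. mt-Atp6 (0.36, adjusted p = 0.0603) and mt-Co2 (0.49, adjusted p = 0.0714) had log2 changes above 0 and mt-Nd5 (-0.53, adjusted p = 0.0843) one below 0 that did not pass. For mt-Nd1, mt-Nd2, mt-Nd4, mt-Co1 and mt-Cytb the log2 changes lay between -0.05 and 0.22 with adjusted p of 0.258 to 0.869. Their 95% intervals reached at most from -0.36 to 0.52.

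The Cd mice differed among themselves in a set of mRNAs. mt-Atp8 was at 52189 and 46907 TPM in Cd mice 1 and 2 and at 93318 and 80610 TPM in mice 5 and 6, against 74691 to 81804 TPM in control mice. mt-Nd5, the largest of the complex I genes, was at 1679 and 1740 TPM in mice 1 and 2 and at 4182 and 3022 TPM in mice 5 and 6, against 3173 to 3894 TPM. mt-Nd4l was at 4549 and 4610 TPM, then 11011 and 8541 TPM, against 8140 to 10051 TPM. In 7 genes, these 3 with mt-Nd1, mt-Co1, mt-Nd4 and mt-Nd6, Cd mice 1 and 2 were below every control mouse and Cd mouse 5 was above every control mouse. Cd mouse 5 was above the control range in all 15 genes. With all mice, mt-Nd4l had a log2 change of -0.48 in Cd against control (limma adjusted p = 0.132). Without Cd mouse 5, mt-Nd5 was called lower, with a log2 change of -0.79 (limma adjusted p = 0.00796), as was mt-Nd4l, with -0.72 (adjusted p = 0.0206). In that fit 2 of the 15 genes were called lower and 2 higher, against 17.0% and 5.8% of all genes.

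**Figure D4:**
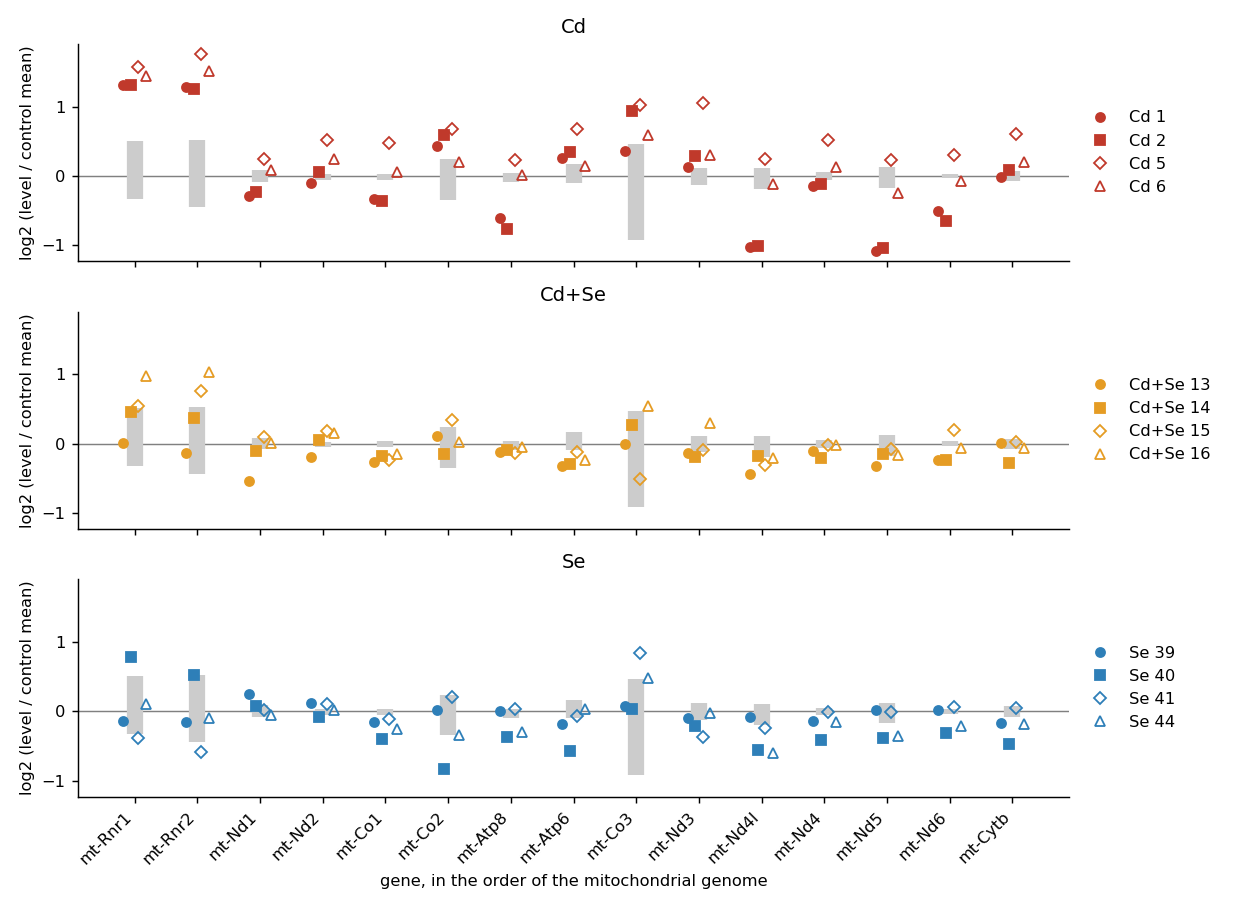
Level of each of the 15 expressed genes in every treated mouse as log2 of its ratio to the control mean, in the order of the mitochondrial genome; symbols mark the mice of a group and grey bars the range of the 4 control mice. In the Cd panel the rRNAs lie above the grey bars in all mice, and mice 1 and 2 lie below the bars and mouse 5 above them at mt-Nd1, mt-Co1, mt-Atp8, mt-Nd4l, mt-Nd4, mt-Nd5 and mt-Nd6.

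Summing the genes with their chromosome 1 copies changed which mRNAs were called. mt-Co3 with its copy was at 19604 ± 832 TPM (SD, n = 4) in control and 26493 ± 4593 TPM in Cd mice, and the groups no longer overlapped. Its log2 change was 0.42 (standard error 0.12, limma adjusted p = 0.0173), lower than for the mitochondrial row alone. mt-Nd3 with its copy was at 14887 ± 621 TPM and 19915 ± 3239 TPM, with a log2 change of 0.41 (adjusted p = 0.0198). mt-Atp6 with its copy was at 20824 ± 725 TPM and 27013 ± 4398 TPM, with a log2 change of 0.36 (adjusted p = 0.0365). In this fit 5 of the 15 genes were called higher, the 2 rRNAs and these 3, and 0 lower, against 5.82% of all genes called higher. The other pairs were not called: the log2 change was 0.18 for mt-Co2 (adjusted p = 0.278) and -0.39 for mt-Nd4l (adjusted p = 0.183). This fit was chosen after the levels of the copies had been seen.

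The comparison of Cd+Se with Cd mice asked how Se feeding changed the response to Cd. Both rRNAs and mt-Atp6 were called lower in Cd+Se mice, and no mitochondrial gene was called higher. Of the 15 genes 3 were called lower and 0 higher, while among all genes 15.9% were called, 13.6% as higher and 2.35% as lower. The median log2 change was -0.18 for the 15 genes and 0.17 for all genes tested. mt-Rnr1 was at 1024, 1397, 1478 and 1997 TPM in Cd+Se mice 13 to 16, all below the lowest Cd mouse at 2529 TPM, with a log2 change of -0.91 (standard error 0.24, limma adjusted p = 0.0216). mt-Rnr2 was at 674, 960, 1254 and 1528 TPM, again all below the lowest Cd mouse at 1773 TPM, with a log2 change of -0.95 (standard error 0.27, limma adjusted p = 0.0299). mt-Atp6 was at 2274, 2323, 2608 and 2413 TPM against 3152 to 4580 TPM in Cd mice, with a log2 change of -0.61 (standard error 0.14, limma adjusted p = 0.0142). These 3 genes were also the only ones of the 15 whose groups did not overlap, against 19.2% of all genes tested. Malat1 was lower in Cd+Se than in Cd mice as well, with a log2 change of -0.64 (limma adjusted p = 0.0211), while Neat1 was not called.

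The calls of the rRNAs in this comparison were near the threshold. mt-Rnr1 was lost without Cd 5 (adjusted p = 0.0660) or Cd+Se 14 (0.0565), and mt-Rnr2 without Cd 5 (0.0972), Cd 6 (0.0591), Cd+Se 13 (0.0717) or Cd+Se 14 (0.0777). With no filter on low values, both were lost, with limma adjusted p of 0.0613 for mt-Rnr1 and 0.0823 for mt-Rnr2. In a model of the Cd and Cd+Se mice alone, none of the 3 genes passed, with adjusted p of 0.0562 for mt-Rnr1, 0.0710 for mt-Rnr2 and 0.0648 for mt-Atp6. Summed with its copy, mt-Atp6 had a log2 change of -0.41 (adjusted p = 0.0365) and mt-Co3 one of -0.42 (adjusted p = 0.0319), so that 4 genes were called lower, against 2.34% of all genes. The uncalled mRNAs had log2 changes from -0.66 for mt-Co3 alone to 0.36 for mt-Nd5.

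**Figure D5:**
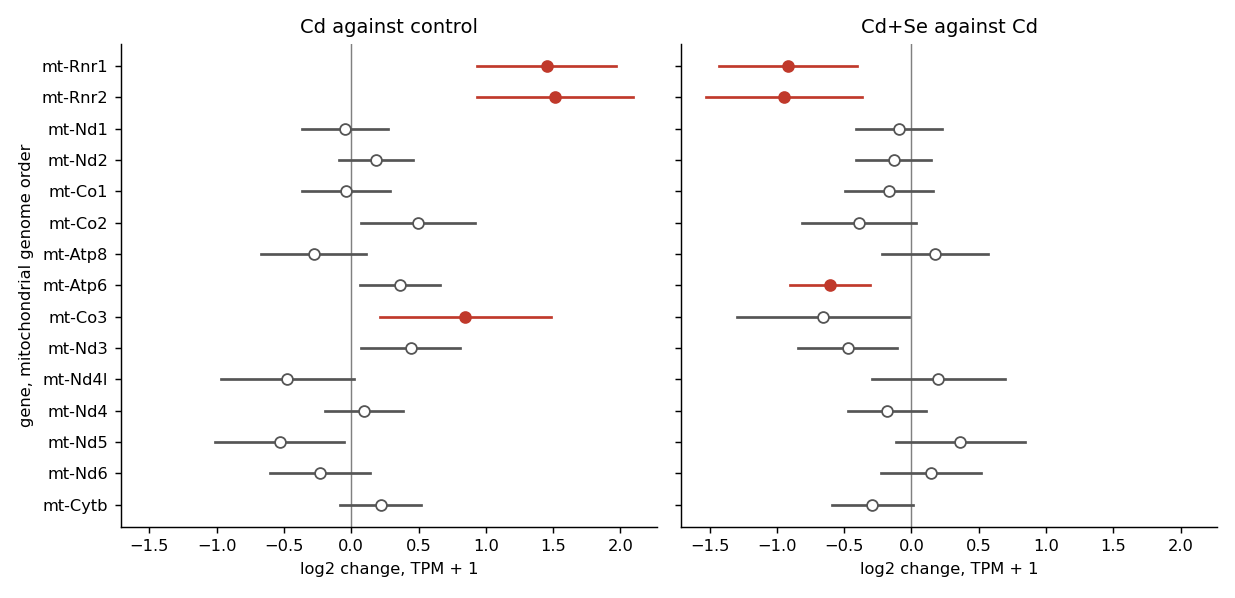
Log2 change on the TPM + 1 scale, with its 95% interval, of the 15 expressed genes for Cd against control and Cd+Se against Cd; filled red points passed the limma adjusted threshold. The rRNAs have the 2 highest changes in the first panel and the 2 lowest in the second, and both panels use the same Cd mice.

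In the other comparisons no mitochondrial gene was called. In Cd+Se against control, which asks what remained of the Cd response under Se, 0 of 15 genes passed, and 0.484% of all genes were called. An unadjusted limma p under 0.05 was found for 1 of the 15 and for 1286 of all 11766 genes tested. mt-Rnr1 had a log2 change of 0.54 (adjusted p = 0.431) and mt-Rnr2 one of 0.56 (adjusted p = 0.474). Their 95% intervals, 0.02 to 1.05 and -0.02 to 1.14, reached from near 0 to a log2 change above 1, so the level left under Se was not determined closely. In Cd+Se against Se, the effect of Cd in Se-fed mice, 0 of 15 passed, with 0.714% of all genes called. Here too 1 of the 15 and 1286 of all 11766 genes had an unadjusted limma p under 0.05. mt-Rnr1 had a log2 change of 0.40 (adjusted p = 0.600) and mt-Rnr2 one of 0.59 (adjusted p = 0.452). In Se against control, 0 of 15 passed and 0 had an unadjusted p under 0.05, with 0.0% of all genes called and 454 at an unadjusted p under 0.05. mt-Rnr1 was at 924, 1755, 780 and 1098 TPM in Se mice 39, 40, 41 and 44, which spans the control range, and its log2 change was 0.14 (adjusted p = 1).

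Whether the effect of Cd itself differed between Se-fed and unfed mice was tested by the interaction of Cd and Se. Of the 15 genes 0 passed, with 1.04% of all genes called. Beside 2505 of all 11766 genes tested, an unadjusted limma p under 0.05 was found for 3 of the 15, mt-Rnr1, mt-Rnr2 and mt-Co3. Their interaction terms, the log2 change by Cd in Se-fed mice minus that in unfed mice, were -1.05 (adjusted p = 0.110), -0.93 (adjusted p = 0.188) and -1.13 (adjusted p = 0.149). A difference between diets in the rRNA response was thus not established at this threshold.

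Ratios within a library compare transcripts without regard to the scaling between libraries. The ratio of mt-Rnr2 to mt-Nd1, the gene that follows it on the same strand, was 0.1001, 0.0785, 0.0474 and 0.0503 in control mice 27 to 30 and 0.204, 0.192, 0.196 and 0.184 in Cd mice 1, 2, 5 and 6. It was 0.0904, 0.0955, 0.108 and 0.139 in Cd+Se mice 13 to 16 and 0.0513, 0.0932, 0.0448 and 0.0664 in Se mice 39, 40, 41 and 44. The Cd mice were above every mouse of the other groups and close to each other. The log2 difference was 1.56 in Cd against control and -0.86 in Cd+Se against Cd. Each had p = 0.0286 in an exact two-sided permutation test, the smallest that 4 mice against 4 can give, and adjusted p = 0.214 over the 15 ratio tests made. The ratio of the rRNAs to each other, mt-Rnr2 to mt-Rnr1, was 0.726 in control and 0.756 in Cd mice on average, and its log2 difference of 0.06 was small beside the spread of the mice (exact permutation p = 0.543, adjusted p = 0.740). The ratio of mt-Nd6 to mt-Nd5, which lie on opposite strands and share 14 bases, was 1.30 to 1.67 in control mice and 2.17, 1.89, 1.52 and 1.62 in Cd mice 1, 2, 5 and 6, with exact permutation p = 0.0857 and adjusted p = 0.257.

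The nuclear genes that transcribe and process mitochondrial RNA fell in Cd mice more often than they rose. Of 36 such genes 35 reached the level for testing, and in Cd against control 16 were lower and 1 higher, against 24.9% and 5.82% of all genes. Their median log2 change was -0.28, beside -0.17 over all genes. Tfam, which packages the mitochondrial genome and starts its transcription, was at 38.3 ± 3.77 TPM (SD, n = 4) in control and 18.9 ± 6.24 TPM in Cd mice, with a log2 change of -1.03 (limma adjusted p = 0.00151). Tefm, the mitochondrial elongation factor, was at 10.7 ± 1.05 TPM and 5.24 ± 1.203 TPM, with a log2 change of -0.92 (adjusted p = 0.000637). Fastkd1, of a family of mitochondrial RNA-binding proteins, had a log2 change of -1.01 (adjusted p = 0.000246). Lrpprc, whose product binds and stabilises mitochondrial mRNAs, was at 37.5 ± 2.21 TPM and 19.5 ± 4.18 TPM, with a log2 change of -0.93 (adjusted p = 0.000579). The gene that rose was Slirp, which encodes the partner protein of Lrpprc, at 7.74 ± 1.22 TPM in control and 14.1 ± 1.47 TPM in Cd mice, with a log2 change of 0.79 (adjusted p = 0.00357). Polrmt, the mitochondrial RNA polymerase, which was singled out after its values were seen, had a log2 change of -0.14 (adjusted p = 0.633). The counts became 13 lower and 6 higher with the libraries centred on their median, where 15.3% of all genes were lower and 19.2% higher, and 14 lower and 4 higher under quantile normalization, where 19.3% were lower and 14.5% higher. The length index, higher in every Cd mouse than in any control mouse, moved with this list too, and its part was not tested.

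In Cd+Se against Cd, 8 of these 35 genes were higher and 1 lower, against 13.6% and 2.35% of all genes. The 5 with the largest changes were Tfam (0.85, limma adjusted p = 0.0141), Fastkd1 (0.63, adjusted p = 0.0123), Slirp (-0.62, adjusted p = 0.0272), Tfb2m (0.56, adjusted p = 0.00878), whose product helps open the promoter, and Tefm (0.55, adjusted p = 0.0241), all as log2 changes. The median of the list was 0.11 as deposited, but -0.08 after median centring, where 4 genes were higher and 4 lower against 7.96% and 10.8% of all genes. In the other 3 pairs of groups and in the interaction 0 of the 35 genes were called. Without Cd+Se 14 the counts were 3 higher and 0 lower, with 5.19% and 0.858% of all genes, and without Cd 5 they were 4 and 0, with 5.02% and 1.5%. In a model of the Cd and Cd+Se mice alone both were 0, and over all genes 0.399% were higher and 0.161% lower.

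The nuclear subunits of the same respiratory complexes showed another pattern. Of 70 tested genes of complexes I, III, IV and V, 23 were higher and 5 lower in Cd against control, with a median log2 change of 0.16, against 5.82% and 24.9% of all genes. By complex, 14 of 36 complex I genes, 2 of 9 complex III genes, 4 of 10 complex IV genes and 3 of 15 complex V genes were higher and 2, 2, 0 and 1 lower, with medians of 0.22, 0.03, 0.27 and 0.04. The largest rises were those of Ndufab1 (0.79, limma adjusted p = 0.00165), the mitochondrial acyl carrier protein in complex I, of Uqcrq (0.76, adjusted p = 0.000718), a small subunit of complex III, and of Atp5e (0.63, adjusted p = 0.00134), a small subunit of the ATP synthase. The genes that fell were Atp5a1 (-0.57, adjusted p = 0.00164), a subunit of the head of the ATP synthase, Uqcrc2 (-0.49, adjusted p = 0.00660) and Uqcrc1 (-0.41, adjusted p = 0.00427), the core proteins of complex III, and Ndufv1 (-0.48, adjusted p = 0.00417) and Ndufs1 (-0.43, adjusted p = 0.00397), which carry redox centres of complex I. These 5 were named after their values were seen. In Cd+Se against Cd, 0 of the 70 genes were higher and 26 lower, against 13.6% and 2.35% of all genes, with a median of -0.31. The higher count in Cd against control was 50 after median centring, with 19.2% of all genes higher, and 13 in a model of those groups alone, with 6.35%. It was 12 without control 28 (3.73% of all genes), 14 without control 29 (3.94%), 13 without control 30 (4.15%) and 12 without Cd 1 (4.03%). The lower count in Cd+Se against Cd was 63 after median centring, with 10.8% of all genes lower, and 43 under quantile normalization, with 7.72%. It was 12 without Cd+Se 14 (0.858%) and 0 in a model of those groups alone (0.161%). The length index given above moved in the same mice. Its part in this pattern was not tested.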

How the data were processed

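Liver RNA was extracted with TRIzol, selected for poly(A) and sequenced, per the labels and the paper's methods. The values are TPM as deposited by the authors, 1 column per mouse, and the submitters' processing notes list fastp, HISAT2 and StringTie and the build GRCh38, although the rows carry mouse Ensembl identifiers. Positions, lengths and sequences here are from GENCODE M21 (GRCm38). Copies were aligned to their mitochondrial gene with Biopython 1.88. Groups were taken from the treatment labels of the samples. The sample titles, used to match columns to mice, list rep1 and rep2 for each mouse without saying how they were joined.

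The members, the lists of nuclear genes and markers and the tests were chosen with earlier results of these data known. All rows named mt- are reported, the expressed ones by mouse, and list genes are named by the size of their called change. log2(TPM + 1) was fitted by limma 3.58.1 (R 4.3.3), using group means and an intensity trend, for genes whose mean reached 1 TPM, with Benjamini-Hochberg adjustment over all 11766 genes. A log2 change on this scale understates that of low genes. Since count depth is not kept, no count model was used. Ratios were compared by exact two-sided permutation over 70 arrangements with SciPy 1.17.1. Lengths for the length index were found for 99.85% of 10470 genes. In data simulated for Cd against control over 11766 genes, 85 of 100 genes changed by a log2 of 1 and 98 of 100 changed by 2 were recovered, and 1 unchanged gene was called.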

Additional observations from a re-analysis of the deposited data

Results flagged for a closer look

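In 80 groups of 4 mice (15 genes, 2 shares and 3 ratios in each group), 2 held a mouse whose gap to the nearest other mouse was above Dixon's critical value at the 95% level as a share of the group's range. Chance gives about 1 in 20, or 4.0 here. mt-Atp8 in control mouse 27 was at 74691 TPM, below the other control mice at 80832 to 81804 TPM, with a gap of 0.863 of the range. mt-Nd3 in Cd mouse 5 was at 6075 TPM, above the other Cd mice at 3187 to 3588 TPM, with a gap of 0.861 of the range. Without Cd 5 the log2 change of mt-Nd3 in Cd against control was 0.24, the lowest among the alternatives.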

How the results depend on the processing

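The number of mitochondrial genes called in Cd against control was 3 as reported, all higher, with 5.82% of all genes higher. After median centring it was 6, where mt-Co2, mt-Atp6 and mt-Nd3 joined the higher genes and 19.2% of all genes were higher. Summing genes with their chromosome 1 copies gave 5, with 5.82% of all genes higher. Leaving out single mice gave 2 to 5, with 3.73 to 6.45% of all genes higher. The number was 5 without Se 40 (6.45%). Without Cd 5, 2 were higher and 2 lower, with 5.8% of all genes higher and 17.0% lower. In Cd+Se against Cd it was 3 as reported, all lower, with 2.35% of all genes lower. With no filter on low values, which tests 27943 genes, 1 was lower, with 0.723% of all genes. With only the 2 groups in the model the number was 0, with 0.161% of all genes lower. Leaving out single mice gave 1 to 4, all lower, with 0.858 to 2.78% of all genes lower. The number was 1 without Cd 5 (1.5% of all genes lower) or without Cd+Se 14 (0.858%). In the interaction it was 0 as reported and 1 after median centring (mt-Rnr1, lower, adjusted p = 0.0417, with 3.54% of all genes lower). The cause of these changes was not tested.

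Signs turned only for log2 changes that were not called. In Cd against control, median centring gave 0.17 for mt-Nd1 and 0.18 for mt-Co1, quantile normalization gave -0.048 for mt-Nd2 and -0.062 for mt-Cytb, and leaving out single mice gave -0.14 to 0.036 for mt-Nd1, -0.21 to 0.070 for mt-Co1 and -0.043 to 0.18 for mt-Nd4. In Cd+Se against Cd, quantile normalization gave 0.052 for mt-Nd2 and 0.10 for mt-Co1, median centring gave -0.017 for mt-Atp8 and -0.049 for mt-Nd6, and leaving out single mice gave -0.17 to 0.045 for mt-Nd1 and -0.27 to 0.0079 for mt-Co1. In Se against control, quantile normalization gave 0.014 for mt-Rnr2, and leaving out single mice gave -0.095 to 0.32 for mt-Rnr1 and -0.22 to 0.17 for mt-Rnr2. Among the log2 differences of ratios, leaving out single mice gave -0.040 to 0.079 for mt-Nd6 to mt-Nd5 in Cd+Se against Se, -0.10 to 0.019 and -0.042 to 0.0988 for mt-Rnr2 to mt-Rnr1 in Cd+Se against Cd and against control, and -0.30 to 0.10 for mt-Rnr2 to mt-Nd1 in Se against control. With 3 mice against 4 the exact test cannot reach 0.05.

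The ratio of mean library shares in Cd against control was 0.972 as reported and 0.958 without the 10 highest other genes in the denominator. It was 1.06 with copies added, 1.07 without mt-Atp8 and 0.861 to 1.04 when single mice were left out. All share alternatives moved by less than the larger SD of the groups compared. In Cd mice that SD was 4.49% of the library, so this bar was hard to exceed in comparisons with them. No paired analysis was possible because the mouse numbers are not shared between groups.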

Other observations

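The levels listed at some near-identical sequences varied widely from mouse to mouse. Gm28439, which matches the first 876 bases of mt-Nd4, was at 471 TPM in Cd mouse 5 and listed at 0 in the other 15 libraries. Gm29216, the copy of the end of mt-Co1, was at 3397 and 1436 TPM in Cd mice 1 and 2 and at 30.6 and 35.2 TPM in Cd mice 5 and 6, and it spanned 155 to 1436 TPM in control mice.

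The share of the library taken by the nuclear genes of complexes I, III, IV and V was 1.92% and 1.83% in Cd mice 1 and 2 and 1.56% in both Cd mice 5 and 6, whereas the mitochondrial share was lower in mice 1 and 2 than in mice 5 and 6. In control mice it was 1.37 to 1.75%, with the highest value in mouse 27, which also had the highest rRNA share and the lowest mitochondrial share of its group.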
